A study of Sus scrofa with 8 samples.

Results

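ATF4, a transcription factor of the integrated stress response, and 9 of its well-known target genes (DDIT3, TRIB3, ASNS, CHAC1, SESN2, PSAT1, PHGDH, PSPH and SHMT2) were followed in cultured pig pancreatic ductal organoids (PPDO). The members were chosen by name: every row of the count table whose gene symbol, without the suffixes that mark isoform and extended models, was one of these 10 symbols was taken, and the rows of a gene were summed. The 10 symbols were picked with earlier results of these data known. All 10 symbols were found, among 30282 genes in the table, and all 10 passed the expression filter that left 14475 genes for testing.

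PPDO are epithelial organoids grown from ducts picked out of digested pig pancreas and embedded in basement membrane extract. Poly(A) RNA was sequenced from 4 lines, each grown for a week in both complete and differentiation medium, for a total of 8 libraries. The line Em came from embryonic, EPN1 and EPN2 from early postnatal and LPN from late postnatal pancreas, so that the embryonic and the late postnatal stage were each represented by 1 line. The sample titles call the groups Control (complete medium) and Treated (differentiation medium), while the treatment field names endocrine induction media for all 8 samples, so that the titles and the column names set the groups here.

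Both media were built on Advanced DMEM/F12 with GlutaMAX and HEPES and held N2, B27 without vitamin A, the TGF-beta receptor inhibitor A83-01, the ROCK inhibitor Y-27632, nicotinamide and N-acetyl-L-cysteine. Complete medium also held prostaglandin E2, WNT3a, R-spondin, noggin, FGF10, EGF and gastrin, which differentiation medium lacked. For maintaining the lines, a conditioned medium supplement took the place of WNT3a, R-spondin and noggin. Whether the complete medium of these libraries held it is not given in the sources used here. The study drew on wild-type pigs and on pigs with an INS-eGFP reporter, and the animal behind each bulk line was not stated. Each line gave 1 library per medium, so that a p-value below measures the spread between these 4 lines, and differences between lines have no test.

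In the integrated stress response, kinases that sense lack of amino acids (GCN2), unfolded protein in the endoplasmic reticulum (PERK), double-stranded RNA (PKR) or lack of heme (HRI) phosphorylate the translation factor eIF2. Most translation then slows, while the ATF4 mRNA is translated more, through short upstream reading frames. ATF4 protein raises the transcription of genes for amino acid synthesis, uptake and redox balance, and with long stress also that of DDIT3, which encodes the transcription factor CHOP. Because ATF4 is set largely by translation, and further by protein stability, its mRNA level is not a measure of its activity. In a pancreas, the pathway is best known from the high load of secretory protein in acinar and beta cells.

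Library totals lay between 40553593 and 47910657 counts, and the members had 53 to 38937 counts per library. The ductal markers were present in both media, with a summed level of 6644 to 9159 CPM (the counts of a gene as a share of the library total, scaled by TMM factors) in complete and 3832 to 14208 CPM in differentiation medium. This sum did not move alike in the lines, with log2 changes of 0.63 in Em, -0.36 in LPN, 0.57 in EPN1 and -0.81 in EPN2. Of the 9 ductal markers tested, 1 was lower in differentiation medium in Em, 6 in LPN, 1 in EPN1 and 8 in EPN2. Among the acinar markers, CPB1, PNLIP and CLPS had no count in any library, and the summed level of 124 to 163 CPM in complete and 148 to 320 CPM in differentiation medium was mostly that of CTRC. The endocrine markers summed to 1.81 to 9.86 and 1.52 to 32.1 CPM, the stromal ones to 0.950 to 6.33 and 0.958 to 9.55 CPM and the endothelial ones to 23.0 to 35.6 and 16.4 to 47.6 CPM. The immune list summed to 1171 to 1850 CPM in complete and 1042 to 1214 CPM in differentiation medium, nearly all of it from CD79A, while PTPRC, which marks all white blood cells, averaged 0.851 and 0.212 CPM. Of these marker genes edgeR called 0 between the media, with at most 2 per list at an unadjusted p-value under 0.05 and at most 1 per list by DESeq2. With the line as a block edgeR called the epithelial cadherin CDH1 higher (log2 fold change 1.11, adjusted p-value 0.0172) and the stromal receptor gene PDGFRB lower (-3.04, 0.0160), the latter at 0.430 to 4.85 CPM in complete and 0.0234 to 0.825 CPM in differentiation medium. The part of other cell types in the results below was not tested. In bulk RNA, fewer cells that express a gene and less of its RNA per cell cannot be told apart.

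Across the 4 lines, 9 of the 10 genes were lower in differentiation medium by the edgeR estimate, with CHAC1 lowest at a log2 fold change of -3.69, and SESN2 was the exception at 0.06. The median over the 10 genes was -1.07, against 0.01 over all genes tested. None of the 10 passed an adjusted p-value of 0.05 in edgeR's quasi-likelihood test, where 6.97% of all genes tested did (4.1% lower and 2.87% higher). At an unadjusted p-value under 0.05 there were 4 members, ATF4, ASNS, CHAC1 and PSPH, all lower, where 27.3% of all genes tested were under it and 14.3% were under it and lower. With DESeq2, the tool that the study names, the same 4 genes passed an adjusted p-value of 0.05 as lower, against 17.7% of all genes tested in either direction, 8.94% lower and 8.8% higher.

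With the line as a block, edgeR again called 0 of the 10 (19.9% of all genes tested were called, 10.4% lower and 9.48% higher), and 4 were under an unadjusted p-value of 0.05, namely ATF4, DDIT3, CHAC1 and PSPH. DESeq2 with the block called those 4 genes lower, against 34.7% of all genes tested in either direction, 16.6% lower and 18% higher. The values of DDIT3 are those of its named row, which leaves out a second gene model described below. With both models summed, the edgeR adjusted p-value of DDIT3 with the block was 0.320, and DESeq2 was not run on the sum. ATF4, CHAC1 and PSPH were thus called by both DESeq2 fits and by neither edgeR fit.

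The change differed between lines, a difference that has no test with 1 library per line and medium. In Em, the level of all 10 genes was lower in differentiation medium, and their log2 changes in CPM had a median of -2.50 and a range from -5.42 to -0.72. In LPN, all 10 were also lower, with a median of -0.90. In EPN1, 8 were lower and the median was -0.63. In EPN2, 4 were lower, DDIT3 by its named row among them, and 6 higher, with a median of 0.01. Over all genes tested, the median change lay between -0.01 and 0.01 in each line, and 49.6% to 50.7% of the genes were lower.

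Each of the 10 genes had its lowest change in Em, a place that Em held for 26.1% of all genes tested. EPN2 had the highest change for 9 of them, SHMT2 being the exception, against 31.6% of all genes tested. Both held for 9 members and for 11.2% of all genes tested. The genes belong to 1 pathway and were read in the same libraries, so they are not independent of each other. They were also chosen with earlier results of these data known, so these shares are a description and not independent evidence. Lower values in at least 3 of the 4 lines were found for 9 members, against 42.3% of all genes tested, and in all 4 lines for 3 members, DDIT3, CHAC1 and PSPH, against 24.2%. For DDIT3 this holds for its named row alone. With its second gene model added, described below, it was higher in differentiation medium in EPN2 (log2 change 0.92). For none of the 10 did the 4 values in differentiation medium lie wholly below the 4 in complete medium, which was so for 9.96% of all genes tested.

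**Figure D1:**
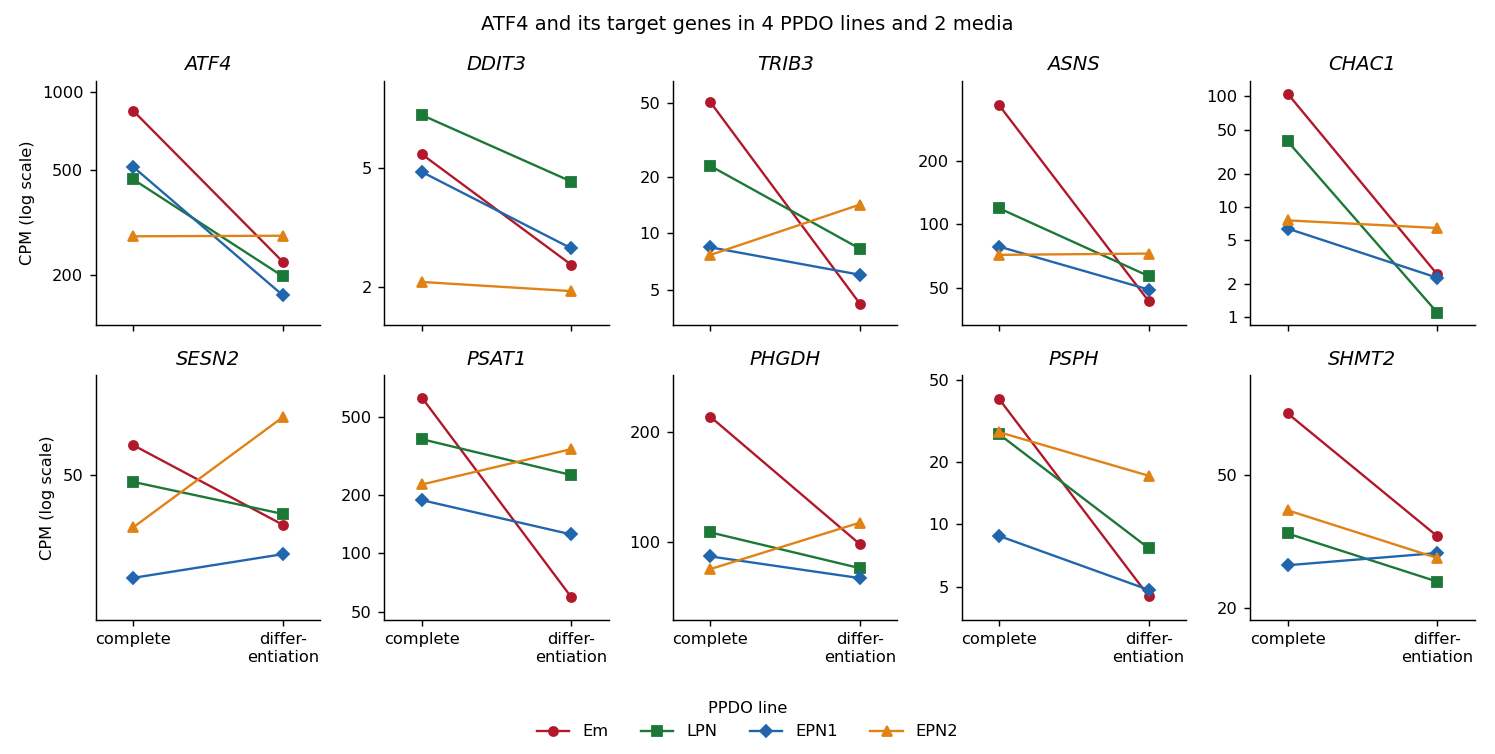
CPM (TMM-scaled, log axis whose range differs between panels) of the 10 genes in complete and differentiation medium, with 1 point per library and a line joining both media of each PPDO line. Em is lower in differentiation medium for all 10 genes, going from 844 to 224 CPM for ATF4 and from 106 to 2.46 CPM for CHAC1, while EPN2 stays level or goes up for ATF4, TRIB3, ASNS, SESN2, PSAT1 and PHGDH.

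**Figure D2:**
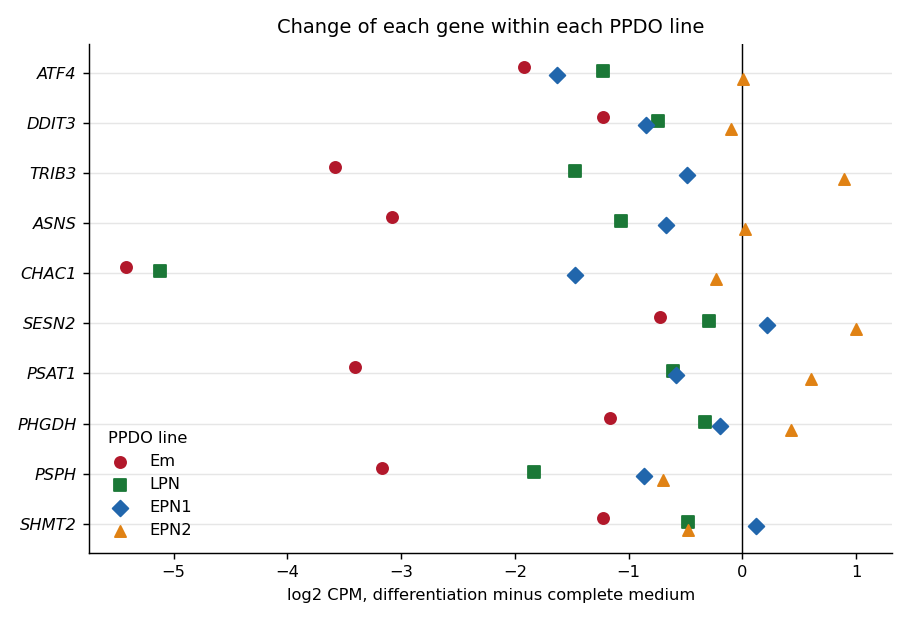
Log2 CPM in differentiation minus complete medium for each gene, with 1 symbol per PPDO line and no error, since each line gave 1 library per medium. The Em symbol is leftmost in all 10 rows, and the EPN2 symbol is rightmost in 9.

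ATF4 (ENSSSCG00000000084, chr5:8742964-8745752, RefSeq on Sscrofa11.1, as are the other positions) encodes the bZIP factor at the centre of the response. In complete medium its level was 844 CPM in Em, 461 in LPN, 515 in EPN1 and 279.9 in EPN2, and in differentiation medium it was 224, 197, 167 and 281 CPM in the same lines. The mean was 525 ± 235 CPM (SD, n = 4) in complete and 217 ± 48.7 CPM in differentiation medium. The 3 lines with more ATF4 mRNA in complete medium ended below every library in complete medium, and EPN2, whose level was alike in both media (log2 change 0.01), made the groups overlap by its own pair of libraries. Over the 4 lines, edgeR gave a log2 fold change of -1.27 (SE 0.33, 95% interval -2.03 to -0.51), with an adjusted p-value of 0.0578. Without EPN2 the edgeR estimate was -1.63 with an adjusted p-value of 0.0299, and over all alternatives tried, edgeR and DESeq2 together, the adjusted p-value ranged from 0.00402 to 0.292. Leaving out the EPN2 library in complete medium alone also brought the edgeR adjusted p-value under 0.05, to 0.0283. Of the 8 fits without 1 library, it was the 1 that called ATF4. Without the line Em the edgeR estimate was -0.94 with an adjusted p-value of 0.144. The edgeR adjusted p-value was 0.292 without EPN1 and 0.251 without LPN.

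DDIT3 (ENSSSCG00000044553, chr5:22785441-22789867) encodes CHOP, a factor that ATF4 induces and that takes part in cell death under lasting stress. In its named row it was read at 5.57 CPM in Em, 7.53 in LPN, 4.86 in EPN1 and 2.08 in EPN2 in complete medium, and at 2.37, 4.51, 2.69 and 1.94 CPM in differentiation medium. Each line was lower in differentiation medium, by the least in EPN2 (log2 change -0.10), yet the groups overlapped, since EPN2 was low in both media. In edgeR its log2 fold change was -0.80 (SE 0.44, adjusted p-value 0.279), and with the line as a block the edgeR adjusted p-value was 0.0932. DESeq2 with the block gave 0.0276, and the adjusted p-values of edgeR and DESeq2 over all alternatives ran from 0.0276 to 0.560.

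A second gene model bears on DDIT3. ENSSSCG00000050998 has no symbol in the count table, and a separate table of gene names calls it DDIT3, while the model named DDIT3 in the counts is not in that table. The second model held 62.4% to 87.4% of the counts of both models together. It stood at 34.9 CPM in Em, 12.7 in LPN, 11.8 in EPN1 and 6.08 in EPN2 in complete medium, and at 7.08, 7.49, 6.27 and 13.5 CPM in differentiation medium. Unlike the named row, it was higher in differentiation medium in EPN2, with a log2 change of 1.15, against -2.30 in Em, -0.76 in LPN and -0.91 in EPN1.

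With both models summed, DDIT3 stood at 40.4 CPM in Em, 20.2 in LPN, 16.7 in EPN1 and 8.16 in EPN2 in complete medium, and at 9.45, 12.004, 8.96 and 15.4 CPM in differentiation medium. The sum thus put DDIT3 beside the other members that were highest in complete medium in Em and higher in differentiation medium in EPN2. Its edgeR log2 fold change was -0.90 (SE 0.45, adjusted p-value 0.237), and the edgeR adjusted p-value with the block was 0.320, against 0.0932 for the named row. The extended rows of both models had identical values in 7 of 8 libraries, and the sum holds both. In the named DDIT3 the extended row held 0.574% of the counts. How reads were shared between the models is not given in the sources used here, so the level of DDIT3 and its change in EPN2 are uncertain. The RefSeq span of DDIT3 also overlaps that of MARS by 69 bases.

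**Figure D3:**
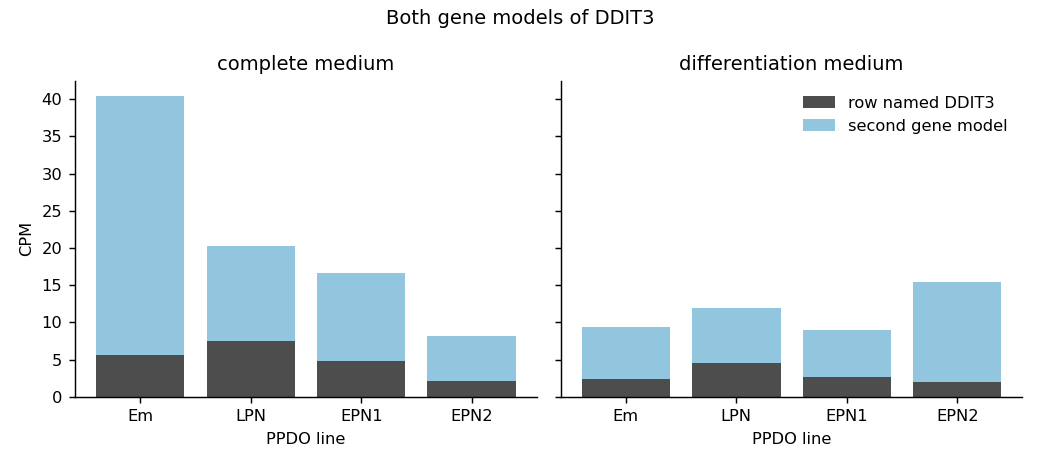
CPM (linear axis from 0) of the row named DDIT3 and of the second gene model, stacked, in each PPDO line, with complete medium on the left and differentiation medium on the right and 1 library per bar. The second model makes up most of each bar, and EPN2 has the lowest bar in complete medium (8.16 CPM) and the highest in differentiation medium (15.4 CPM).

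TRIB3 (ENSSSCG00000039862, chr17:34808273-34819592) encodes a pseudokinase that ATF4 and CHOP induce and that dampens their activity in turn. Its level in complete medium was 50.4 CPM in Em, 23.0 in LPN, 8.42 in EPN1 and 7.66 in EPN2, and in differentiation medium 4.19, 8.27, 5.998 and 14.3 CPM. Em held the highest of the 8 libraries in complete medium and the lowest in differentiation medium, a 12.03-fold difference, while EPN2 was 1.86-fold higher in differentiation medium. The edgeR log2 fold change was -1.45 (SE 0.67, adjusted p-value 0.205). Without Em the edgeR estimate was -0.43 with an adjusted p-value of 0.650, in alternatives of edgeR and DESeq2 that ran from 0.0962 to 0.653.

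SESN2 (ENSSSCG00000029438, chr6:85321982-85348044) encodes sestrin 2, a leucine sensor that restrains mTORC1 and is also induced by p53. It was read at 60.3, 47.9, 26.2 and 36.0 CPM in Em, LPN, EPN1 and EPN2 in complete medium, and at 36.6, 39.1, 30.4 and 72.0 CPM in differentiation medium. The lines went in both directions, lower in Em and LPN and higher in EPN1 and EPN2, and EPN2 was 2.00-fold higher in differentiation medium. By edgeR the log2 fold change was 0.06 (SE 0.34, 95% interval -0.72 to 0.84), with an adjusted p-value of 0.925, and without the line EPN2 the estimate was -0.34.

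CHAC1 (ENSSSCG00000038521, chr1:130360510-130363332) encodes a cyclotransferase that breaks down glutathione and is induced by ATF4. Its CPM in complete medium were 106 in Em, 39.2 in LPN, 6.37 in EPN1 and 7.55 in EPN2, a 16.6-fold spread, and in differentiation medium they were 2.46, 1.11, 2.29 and 6.45. The groups overlapped by a narrow margin, the highest library in differentiation medium (EPN2, 6.45) lying just above the lowest in complete medium (EPN1, 6.37). In Em the level in complete medium was 43.2-fold that in differentiation medium, and LPN was close to it (log2 changes -5.42 and -5.12), against log2 changes of -1.47 in EPN1 and -0.23 in EPN2. Over the 4 lines, edgeR gave a log2 fold change of -3.69 (SE 1.03, 95% interval -6.07 to -1.32), with an adjusted p-value of 0.0703. DESeq2 gave 0.000807 without and 0.0119 with the block, and over all alternatives the adjusted p-value of either tool reached 0.274 at most.

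ASNS (ENSSSCG00000015340, chr9:77318341-77336290) encodes asparagine synthetase, the textbook target of the amino acid response. In complete medium Em stood apart at 366 CPM, with LPN at 119, EPN1 at 78.4 and EPN2 at 71.7 CPM, and in differentiation medium the 4 lines lay between 43.3 and 72.7 CPM (43.3, 56.9, 49.1 and 72.7 in the same order). The spread between lines narrowed from 5.10-fold to 1.68-fold. EPN2 was alike in both media (log2 change 0.02) and its library in differentiation medium lay above its own in complete medium, so that the groups overlapped. The edgeR log2 fold change was -1.52 (SE 0.53, adjusted p-value 0.118), and -0.57 without Em (edgeR adjusted p-value 0.225). DESeq2 without the block gave an adjusted p-value of 0.0423, the lowest over the alternatives of both tools, which reached 0.316.

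PHGDH, PSAT1 and PSPH encode the enzymes that, in this order, make serine from an intermediate of glycolysis, and SHMT2 then turns serine into glycine in mitochondria and passes its carbon to folate. PHGDH (ENSSSCG00000006717, chr4:101445977-101478144) stood at 220.4, 106, 91.0 and 84.0 CPM in Em, LPN, EPN1 and EPN2 in complete medium, and at 98.3, 84.5, 79.3 and 113 CPM in differentiation medium. Em again stood apart in complete medium and not in differentiation medium. Its log2 fold change in edgeR was -0.42 (SE 0.32, adjusted p-value 0.422), and without Em it was 0.00 (edgeR adjusted p-value 1.00, the highest over the alternatives, of which the lowest was 0.256). Leaving out the Em library in complete medium alone gave an edgeR estimate of 0.02.

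PSAT1 (ENSSSCG00000005287, chr1:231142673-231172364) was read at 629, 385, 187 and 225 CPM in complete medium and at 59.3, 252, 125 and 342 CPM in differentiation medium, in the same order of lines. Em was the highest of the 8 libraries in complete medium and the lowest in differentiation medium, a 10.6-fold difference, while EPN2 was 1.52-fold higher in differentiation medium. The spread between lines was thus wider in differentiation medium, at 5.78-fold against 3.36-fold, whereas for 8 of the 10 genes log2 CPM spread more widely in complete medium (46% of all genes tested), SESN2 being the other exception. By edgeR the log2 fold change was -0.87 (SE 0.58, adjusted p-value 0.364), and -0.13 without Em (edgeR adjusted p-value 0.879, in alternatives of edgeR and DESeq2 from 0.192 to 0.879).

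PSPH (ENSSSCG00000007748, chr3:16877904-16903062) was at 40.6, 27.4, 8.80 and 28.0 CPM in complete medium and at 4.50, 7.68, 4.82 and 17.2 CPM in differentiation medium. It was lower in each of the 4 lines, from a log2 change of -3.17 in Em to -0.70 in EPN2, and the groups overlapped because EPN1 was low in complete medium. Among the serine enzymes it was the 1 gene that DESeq2 called, with adjusted p-values of 0.0406 without and 0.00218 with the block. In edgeR the log2 fold change was -1.61 (SE 0.57) with an adjusted p-value of 0.121, and 0.0587 with the block, and over all alternatives of both tools the adjusted p-value ran up to 0.373.

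SHMT2 (ENSSSCG00000037077, chr5:22535780-22540322) was at 76.6, 33.4, 26.8 and 39.2 CPM in Em, LPN, EPN1 and EPN2 in complete medium and at 32.8, 24.0, 29.2 and 28.2 CPM in differentiation medium. EPN1 was the 1 line without a decrease (log2 change 0.12), whereas the other 9 genes had their highest change in EPN2. The edgeR log2 fold change was -0.63 (SE 0.32, adjusted p-value 0.242). Its RefSeq span overlaps that of NXPH4 by 835 bases, and whether strand was used in counting is not given in the sources used here.

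In complete medium, 9 of the 10 genes were highest in Em, all but DDIT3 by its named row, against 28.2% of all genes tested. Without Em each of the 10 edgeR estimates was higher than with all 4 lines, and their median over the 10 genes was -0.50 in place of -1.07. That fit called 0 of the 10 and 149 of all genes tested, against 1009 with all 4 lines. Without EPN2, edgeR called 1 of the 10, ATF4, and 1207 of all genes tested.

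**Figure D4:**
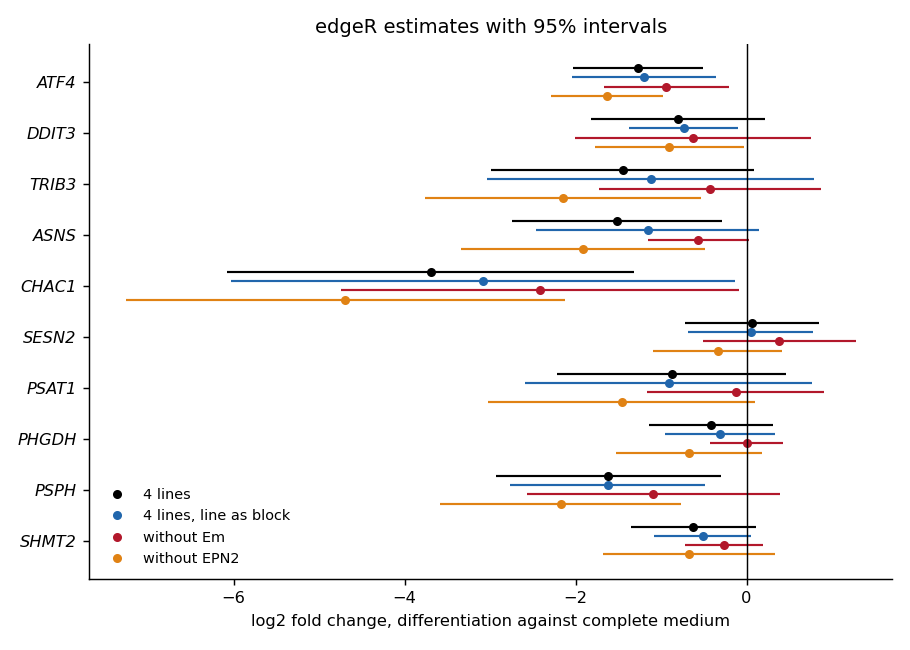
edgeR log2 fold changes, differentiation against complete medium, with 95% intervals, for the 10 genes from 4 fits: all 4 lines, all 4 lines with the line as a block, without Em and without EPN2. The estimates without Em lie nearest to 0 for 9 of the 10 genes, from -2.41 for CHAC1 to 0.00 for PHGDH, and those without EPN2 are the lowest for each gene.

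Other genes that ATF4 is known to induce were taken as a second list of 34, of which 32 were tested. By edgeR 6 of them fell, 0 rose, and 28 of 32 had an estimate below 0, with a median of -0.79, where 4.1% of all genes tested were called lower and the median was 0.01. With the line as a block 9 fell and with DESeq2 12, where 10.4% and 8.94% of all genes tested were called lower. Without Em 2 fell, and 149 of all genes tested were called. This list was chosen with earlier results of these data known, so its direction is not independent evidence. It names genes that ATF4 can induce, and whether ATF4 or another regulator set their change here was not tested.

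DDIT4, which encodes the mTORC1 inhibitor REDD1, stood at 787, 658, 504 and 389 CPM in Em, LPN, EPN1 and EPN2 in complete medium and at 96.5, 134, 111 and 153 CPM in differentiation medium. The groups were far apart, with each line lower (edgeR log2 fold change -2.24, SE 0.26, adjusted p-value 0.00807). PYCR1, which makes proline, went from 138, 70.0, 56.0 and 46.3 CPM to 12.3, 6.18, 8.49 and 8.29 CPM, an edgeR log2 fold change of -3.14 (SE 0.40, adjusted p-value 0.0116).

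GDF15, a secreted stress hormone, fell in edgeR by 2.80 on the log2 scale (SE 0.45, adjusted p-value 0.0186), from 27.8 ± 10.97 to 3.996 ± 1.88 CPM (SD, 4 lines). STC2, a secreted glycoprotein, went from 130, 42.3, 19.5 and 6.15 CPM to 0.371, 0.292, 1.27 and 1.63 CPM, an edgeR log2 fold change of -5.80 (SE 1.11, adjusted p-value 0.0282). Its levels in complete medium followed the order Em, LPN, EPN1, EPN2, and those in differentiation medium were higher in the EPN lines than in Em and LPN. CBS, which joins serine and homocysteine on the way to cysteine, fell by 2.72 (edgeR adjusted p-value 0.0346) and MTHFD2, the mitochondrial folate enzyme that acts after SHMT2, had a log2 fold change of -2.18 (edgeR adjusted p-value 0.0420).

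The next genes by p-value did not pass in edgeR without the block, with log2 fold changes of -2.64 for ALDH1L2 (adjusted p-value 0.0585, and 0.0183 with the block), -0.45 for LONP1 (0.0624, and 0.0309 with the block), -2.37 for the leucine transporter SLC7A5 (0.0810) and -0.58 for XPOT (0.0915). In EPN2, 18 of the 32 genes tested were lower, among them the 6 called genes, whose call over the 4 lines used these libraries, with log2 changes from -2.48 for PYCR1 to -1.12 for MTHFD2. Of the 32 genes tested, 16 were lower in all 4 lines, 21 had their lowest change in Em and 20 their highest in EPN2. When 1 library at a time was left out, DDIT4 was called by edgeR in 8 of 8 fits, PYCR1 in 7, GDF15 in 6, STC2 in 3, CBS in 2 and MTHFD2 in 1. Without the EPN1 library in differentiation medium only DDIT4 of these was called, and the edgeR adjusted p-values of the others were then between 0.0527 (PYCR1) and 0.120 (MTHFD2).

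**Figure D5:**
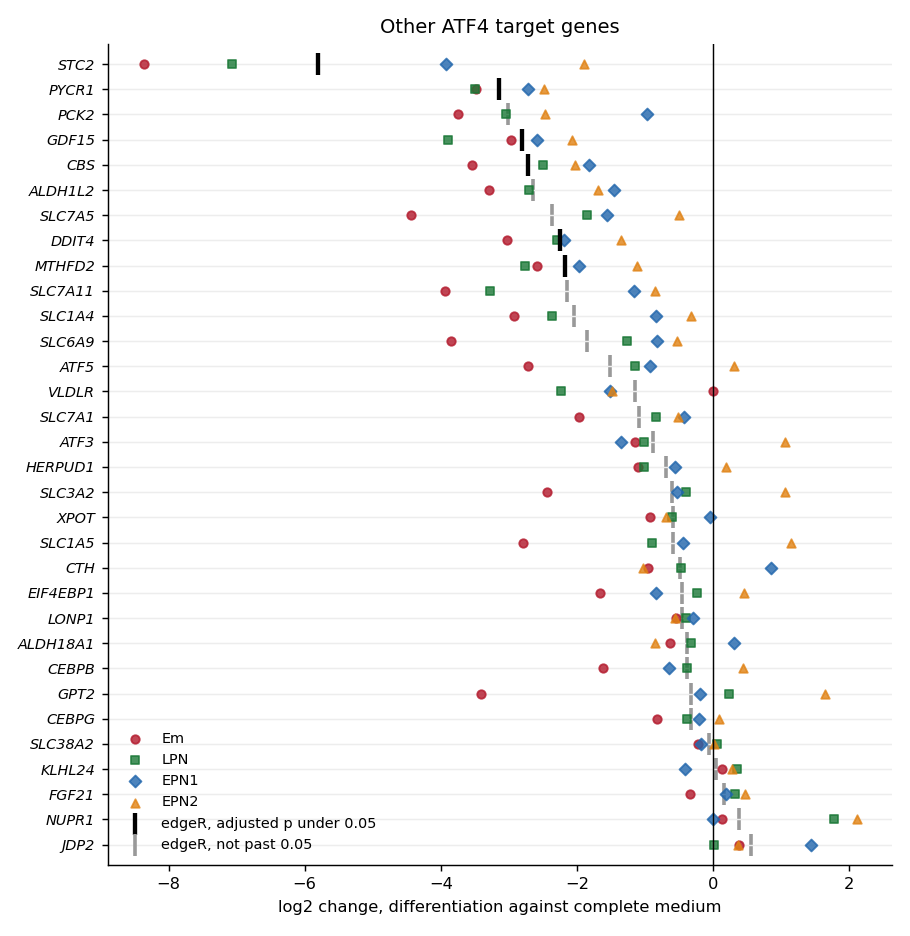
Log2 change of 32 other ATF4 target genes, differentiation against complete medium, ordered by the edgeR estimate (vertical bars, black where the adjusted p-value was under 0.05 and grey otherwise), with 1 symbol per PPDO line. The 6 called genes (STC2, PYCR1, GDF15, CBS, DDIT4 and MTHFD2) have all 4 symbols left of 0, from -8.37 for STC2 in Em to -1.12 for MTHFD2 in EPN2.

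The genes upstream of ATF4 came next. Of 14 tested genes for eIF2 kinases, eIF2 and eIF2B subunits and the phosphatase subunits, edgeR called 0 (3 at an unadjusted p-value under 0.05), and the median was -0.16. With the block edgeR called 1, and DESeq2 without the block 2, where these fits called 19.9% and 17.7% of all genes tested. EIF2S2, the beta subunit of eIF2, had an edgeR log2 fold change of -0.84 (adjusted p-value 0.0551). EIF2B3, a subunit of the exchange factor for eIF2, had -0.50 (0.0585, and 0.0323 with the block, both by edgeR), EIF2B4 had -0.56 (edgeR adjusted p-value 0.117) and EIF2B2 had -0.30 (edgeR adjusted p-value 0.190).

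The cytosolic aminoacyl-tRNA synthetases, which charge tRNAs and several of which ATF4 induces, had a median of -0.47 over 19 tested genes. KARS1, which charges the tRNA for lysine, was called lower by edgeR at -0.81 (SE 0.14, adjusted p-value 0.0216). It was at 669, 608, 715 and 501 CPM in Em, LPN, EPN1 and EPN2 in complete medium and at 352, 368, 370.5 and 332 CPM in differentiation medium, with no overlap, and edgeR called it in 2 of the 8 fits that left out 1 library. IARS1 and CARS1 followed at -0.66 (edgeR adjusted p-value 0.0776) and -0.76 (edgeR adjusted p-value 0.0979).

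Of the folate and glycine genes, 17 were tested, with a median of -0.53. With the block edgeR called 6 lower and DESeq2 without the block 6, against 10.4% and 8.94% of all genes tested. By edgeR without the block 4 were called lower, against 4.1% of all genes tested. SFXN1, which carries serine into mitochondria, was at 58.0, 42.3, 52.2 and 37.7 CPM in complete and at 21.8, 17.2, 21.3 and 18.3 CPM in differentiation medium, lower by a similar amount in each line (edgeR log2 fold change -1.28, SE 0.17, adjusted p-value 0.0121). The others were MTHFD2, MTHFD1L at -1.52 (edgeR adjusted p-value 0.0479) and MTHFD2L at -0.60 (edgeR adjusted p-value 0.0490). SFXN1 was called in 7 of the 8 fits without 1 library, the exception being that without EPN1 in differentiation medium (edgeR adjusted p-value 0.0527), MTHFD1L in 1 and MTHFD2L in 0.

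The glutathione genes, which share substrates with CHAC1 and the serine enzymes, had a median of -0.41 over 10 tested. By edgeR 2 were called lower, against 4.1% of all genes tested. These were GPX1, a glutathione peroxidase, at -1.20 (edgeR adjusted p-value 0.0315, called in 3 of 8 fits without 1 library) and GCLC, the catalytic subunit of the first enzyme of glutathione synthesis, at -0.83 (edgeR adjusted p-value 0.0382, called in 1 of 8). GPX4 had an edgeR log2 fold change of -0.28 (adjusted p-value 0.107). The cystine transporter SLC7A11 had one of -2.15, with an edgeR adjusted p-value of 0.142 and with log2 changes of -3.94 in Em, -3.28 in LPN, -1.17 in EPN1 and -0.85 in EPN2.

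The other branches of the unfolded protein response were covered by 18 tested genes of the XBP1 and ATF6 arms, of which edgeR called 1 lower, EDEM1, a factor of protein degradation from the endoplasmic reticulum (-1.24, adjusted p-value 0.0427). It was called in 2 of the 8 fits without 1 library, and its edgeR adjusted p-value was highest without EPN1 in differentiation medium, at 0.121. The median was -0.42, and edgeR without the block called 4.1% of all genes tested lower. With the line as a block edgeR called 10 lower, where 10.4% of all genes tested were called lower. Among the 10 was the chaperone HSPA5, whose edgeR log2 fold change was -1.17 (adjusted p-value 0.0747, and 0.0234 with the block). ATF6 was at -0.36 (edgeR adjusted p-value 0.0844, block 0.0453) and HYOU1 at -0.51 (edgeR adjusted p-value 0.0955, block 0.0239). In this list the median change was -0.44 in Em, -0.44 in LPN, -0.29 in EPN1 and -0.41 in EPN2. Single genes could differ more between lines. The log2 changes of EDEM1 were -0.21 in Em, -1.72 in LPN, -1.73 in EPN1 and -1.06 in EPN2.

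Because SESN2 is also a p53 target, 12 tested p53 target genes were read beside it. Of these edgeR called 1 lower and 1 higher, against 4.1% lower and 2.87% higher of all genes tested. By edgeR RRM2B, a ribonucleotide reductase subunit, fell by 1.22 on the log2 scale (adjusted p-value 0.0272) and SESN1, the paralog of SESN2, rose by 1.10 (adjusted p-value 0.0391). When 1 library was left out, RRM2B was called in 4 of 8 fits and SESN1 in 1 of 8, and without EPN1 in differentiation medium their edgeR adjusted p-values were 0.0849 and 0.114. SESN1 was higher in differentiation medium in each line, by log2 changes from 0.99 in EPN2 to 1.24 in Em, where SESN2 had -0.72 in Em. TIGAR had 1.14 (edgeR adjusted p-value 0.0631, and 0.0145 with the block) and CCNG1 -0.53 (edgeR adjusted p-value 0.143, and 0.0250 with the block), and the median of the list was -0.22.

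Proliferation genes and mitochondrially encoded genes were read as a check on the state of the cultures. Of 16 tested proliferation genes edgeR called 0 (5 at an unadjusted p-value under 0.05), DESeq2 0 and edgeR with the block 8 lower, with a median of -0.51. Of all genes tested, edgeR with the block called 10.4% lower. UBE2C, CDK1, TYMS and CCNB1 had edgeR log2 fold changes of -1.21, -1.34, -0.70 and -1.32, with adjusted p-values of 0.121 to 0.177, and with the block edgeR called UBE2C, CDK1 and CCNB1 at adjusted p-values of 0.0165 to 0.0178. By line the median of this list was -0.34 in Em, -1.11 in LPN, -0.56 in EPN1 and -0.38 in EPN2, so that it was lowest in LPN, where the ATF4 genes were lowest in Em. The 13 mitochondrially encoded genes summed to 72420 to 90818 CPM in complete and 48978 to 53852 CPM in differentiation medium. Of these edgeR called 3 lower, against 4.1% of all genes tested. They were ATP8 (log2 fold change -0.79, edgeR adjusted p-value 0.0177), ATP6 (-0.74, 0.0309) and COX1 (-0.86, 0.0401). When 1 library was left out, edgeR called them in 5, 2 and 1 of 8 fits, and without EPN1 in differentiation medium their adjusted p-values were 0.0739, 0.111 and 0.130. The part of proliferation or of mitochondrial RNA in the values of the 10 genes was not tested.

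The tested genes whose pattern over the 8 libraries lay closest to those of ATF4, DDIT3 and ASNS were sought by the root mean square distance of log2 CPM after each gene's mean was removed. For ASNS they were ATF5, SLC7A1, HPS5, SLC6A9 and TARS1, at distances from 0.266 to 0.418. Of these ATF5, SLC7A1 and SLC6A9 are in the list of other ATF4 targets and TARS1 in that of the synthetases. For ATF4 they were SNORA70, PIMREG, MAP2K1, LARP6 and RF00099, at 0.232 to 0.278, none of which is in a list used here, and of which MAP2K1 and LARP6 were called lower by edgeR (adjusted p-values 0.0189 and 0.0334). For the named row of DDIT3 they were ZKSCAN8, MYO1F, SNORD99, GNG3 and PUSL1, at 0.166 to 0.320, and edgeR called none of these 5, at adjusted p-values of 0.0898 to 0.415.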

How the data were processed

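The authors selected poly(A) RNA, sequenced 4 PPDO lines in complete and in differentiation medium and ran an nf-core pipeline in which salmon quantified the reads on a pig genome with custom annotation. The authors deposited the estimated counts as 1 table of 56060 rows. The submitters' processing notes name Sscrofa11.1, GRCh38 and Cell Ranger, without saying for which assay. The paper names counts scaled by gene length as its input, and whether the deposited table was scaled this way is not given in the sources used here; 78.6% of its values above 0 are exactly whole as written, with no tolerance. Columns were assigned to media and lines by their names, and 0 columns were left unused.

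Rows of a gene with the suffixes -iso (26046) and -ext (25770, holding 2.58% of counts and at most 1.14% of those of a member) were summed and rounded. The 8 reporter rows, with 0.00142% of counts, were left out of totals and tests. Of the 30282 genes, 5612 had no count. The limit set by a count of 0 is 3 counts, or 0.0626 to 0.0740 CPM, and covers counting error only.

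The main test was that of edgeR 4.0.16 in R 4.3.3 (TMM factors 0.935 to 1.06, its default expression filter, quasi-likelihood fits with a term for the medium alone, p-values adjusted over 14475 genes by Benjamini-Hochberg, threshold 0.05) with DESeq2 1.42.0 as an alternative. CPM are scaled by the TMM factors. Log2 changes within a line use a prior count of 1 read. The fits were tested on simulated counts with no difference between lines, a setting unlike these data. That test therefore does not bear on the differences between the fits reported here. Tables and plots used numpy 2.4.6, pandas 2.3.3 and matplotlib 3.10.9.

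Each line was grown in both media, so the line is a replicate block. In deviations from the mean of their medium, the 4 pairs of libraries of the same line correlated at 0.397 to 0.655 and the 12 pairs of different lines at -0.474 to 0.234. Fits with the block, other normalization, no filter, no -ext rows, and without each library and each line were run as alternatives.

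The members and the gene lists were chosen with earlier results of these data known. The genes named are the 10 members, up to 10 other ATF4 targets and up to 4 genes of each other list by smallest p-value, and the 5 genes nearest in pattern to ATF4, DDIT3 and ASNS. The acinar markers with no count were named after their values were seen. Some genes of the lists are not reported here. The second DDIT3 model was added after its values were seen. In the lists, 4 genes were found through a separate table of gene names (CBS, DNAJB11, GGCT and FAS), and 8 of the 10 member identifiers had the same symbol there, all but those of ATF4 and DDIT3. Positions are those of RefSeq on Sscrofa11.1, matched by symbol.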

Additional observations from a re-analysis of the deposited data

Results flagged for a closer look

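In complete medium the Em library lay far from the other lines for 2 of the 10 genes. ASNS was at 366 CPM in Em, against 119 CPM in the next line, with a gap of 0.839 of the whole range, and PHGDH was at 220 CPM in Em, against 106 CPM in the next line, with a gap of the same share. Chance alone marks about 1 group in 20, and 20 groups of 4 libraries were examined, of which these 2 were marked.

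SESN2 went in opposite directions between lines of different stage. Both EPN lines were higher in differentiation medium (log2 changes 0.21 and 1.00), while Em had a log2 change of -0.72 and LPN one of -0.29. The difference between stages was not tested, since Em and LPN are 1 line each.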

How the results depend on the processing

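With the line as a replicate block, edgeR called 2884 genes of all tested in place of 1009, 0 of the 10 members as before, and 28 genes of the pathway lists (the other ATF4 targets, eIF2 genes, synthetases, folate and glycine, XBP1 and ATF6, and glutathione genes) in place of 14. DESeq2 called 2998 genes, 4 members and 26 list genes, and DESeq2 with the block 5608, 4 and 50. With no expression filter edgeR called 506 genes and 9 list genes. Leaving out 1 library gave 70 to 1199 genes, 0 to 1 members and 2 to 15 list genes. Without the line Em edgeR called 149 genes and 4 list genes, without EPN1 0 and 0, and without LPN 5 and 0. Without EPN2 it called 1207 genes, 1 member and 10 list genes. Leaving out a line also leaves fewer samples, and the cause of the other differences was not tested. The log2 fold change of PHGDH ran from -0.569 to 0.0221 when 1 library was left out, the latter without Em in complete medium, and was 0.000159 without the line Em. That of SESN2 ran from -0.266 (without EPN2 in differentiation medium) to 0.299, with -0.0973 without EPN1 and -0.00756 without EPN2 in complete medium, and was -0.34 without the line EPN2. Of 192 alternative values of the members, 176 kept their direction and side of the threshold, 10 passed it and 6 turned. Depth limits the genes with the fewest counts most, and the lowest value of a member in a library was 53 counts.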
